A study of Arabidopsis thaliana with 27 samples.

Results

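A set of 83 probe sets, of 22743 measured, had a signal at 0 h that was not seen again at that height at any of the 8 later times of a tracheary element culture of Arabidopsis thaliana. A probe set was taken when the mean of its 3 arrays lay at least 1.5 log2 units (2.83-fold) below the 0 h mean at each later time, and when its 96 h mean exceeded its 48 h mean by less than 1.5. These 2 conditions were met by 87 probe sets, of which 4 were left out by name (the peroxidase genes PRXR1, AT3G21770 and AT2G41480, and CaS). A further 33 probe sets met the first condition and failed the limit at 96 h. The platform annotation names 1 gene for 41 of the 83 and several for 1 of them, and 41 are not listed there and appear below by probe set ID. Because the measured differences from 0 h chose the set, those differences are given as a description, with no test.

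The cells were a habituated suspension of ecotype Col-0, that is, cells that grow without added hormones, kept in MS medium with B5 vitamins and 3% sucrose. Cells 7 days old were moved to fresh medium that held 6 µg/ml of the auxin NAA, 1 µg/ml of the cytokinin BAP and 4 µM epibrassinolide, a brassinosteroid, and 3 independent time-courses, A, B and C, were sampled at 12 h steps up to 96 h. The labels call the 0 h cells dividing and undifferentiated, place the end of division and the start of expansion at 12 h and 24 h, secondary wall deposition at 60 h to 84 h, and finished walls in cells about to die at 96 h. All later times share the fresh medium and the hormones, so neither can be told apart from the other in a difference from 0 h, and the RNA is that of the whole culture, differentiating or not. In such bulk RNA, fewer cells that express a gene and less RNA per cell cannot be told apart.

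Tracheary elements are the water-conducting cells of xylem, which enlarge, lay down a thick secondary wall and then die. Before that, a plant cell in culture builds a thin primary wall of cellulose, xyloglucan and pectin, which secreted enzymes cut and rejoin as it grows. Peptidases of the vacuole and the cell exterior, with the inhibitors that hold them back, turn over proteins during growth and later take part in cell death.

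Few markers of the labelled stages could be found by name in the platform annotation, which does not list 41 of the 83 members. A gene not found there may still have a probe set on the array. PRX66 and PRX52, peroxidases of lignifying cells, stood at 7.18 and 4.49 at 72 h against 0.76 and 1.27 at 0 h (means on the log2 scale), and PRX72 peaked at 2.12 at 60 h. PRX52 was already at 3.91 at 12 h and was highest at 48 h (7.05), before the labelled wall deposition. PRX66 stood at 5.26 at 48 h. These 3 were the sole genes of an 18-gene tracheary element list found by name, and no epidermis or mesophyll marker was found so. Of mitotic kinases, AUR1 had means of 5.20 (0 h), 1.85 (12 h) and 5.11 (96 h), and AUR2 of 4.73, 1.86 and 4.98. From the 10 lists of genes for nutrient starvation, division, wall and cell type, 17 genes were found by name, and none of these belonged to the set. The 41 members without a listed gene could match no list, so the set may hold other genes of these lists. AT5G20790, the sole gene of the phosphate starvation list found by name, met the first condition. It was back at 7.38 at 96 h, from 8.91 at 0 h and 4.60 at 48 h.

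Several arrays stood apart, and the set depends on them. On the 0 h array of A, 21 of the 83 lay at least 1 log2 unit below both other 0 h arrays, against 1.2% of all probe sets. On the 0 h array of C, 14 of the 83 lay at least 1 unit above both others, against 0.743% of all. On the 96 h array of A, 26 of the 83 lay at least 1 unit below both other 96 h arrays, against 2.89% of all. The rule used the 0 h and 96 h means, so an excess among the 83 on these arrays is partly built in by the choice. With the 96 h mean taken over B and C alone, a setting chosen after seeing the data, 55 of the 83 still met the rule, and 28 did not. Of those 28, 25 were then less than 1.5 below 0 h at 96 h, and 13 exceeded the limit on 96 h minus 48 h. Without the 0 h array of C or of B, 58 and 65 of the 83 still met it, and without that of A 76 of the 83 did, among 130 probe sets in all. RNA quality was read from the GAPDH control as its 3′ signal minus its 5′ signal, a difference that is larger in degraded RNA. In B it was high on the 0 h array and on all 4 arrays from 60 h, at 2.99 to 4.38 log2 units, while the remaining 22 arrays gave 0.35 to 1.89. Its part in the results was not tested except where the values of B are set beside those of A and C.

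The 83 probe sets started from very different heights. Their 0 h means ran from 2.14 to 9.46 log2 units with a median of 3.92, against a median of 0.97 over all probe sets. The median of their 8 differences from 0 h ran from -4.82 to -1.64, with a median over the set of -2.50, a 5.65-fold lower signal. The word lost fits part of them. In 13 all 8 later means were below 1 unit, about the median of an array (0.85 to 1.00), and in 45 all were below 2. In 18 every later mean was 2 or more, and in 2, NANA and AT2G23120, every one was 4 or more, so that these were lowered and still measured well above the array medians.

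**Figure D1:**
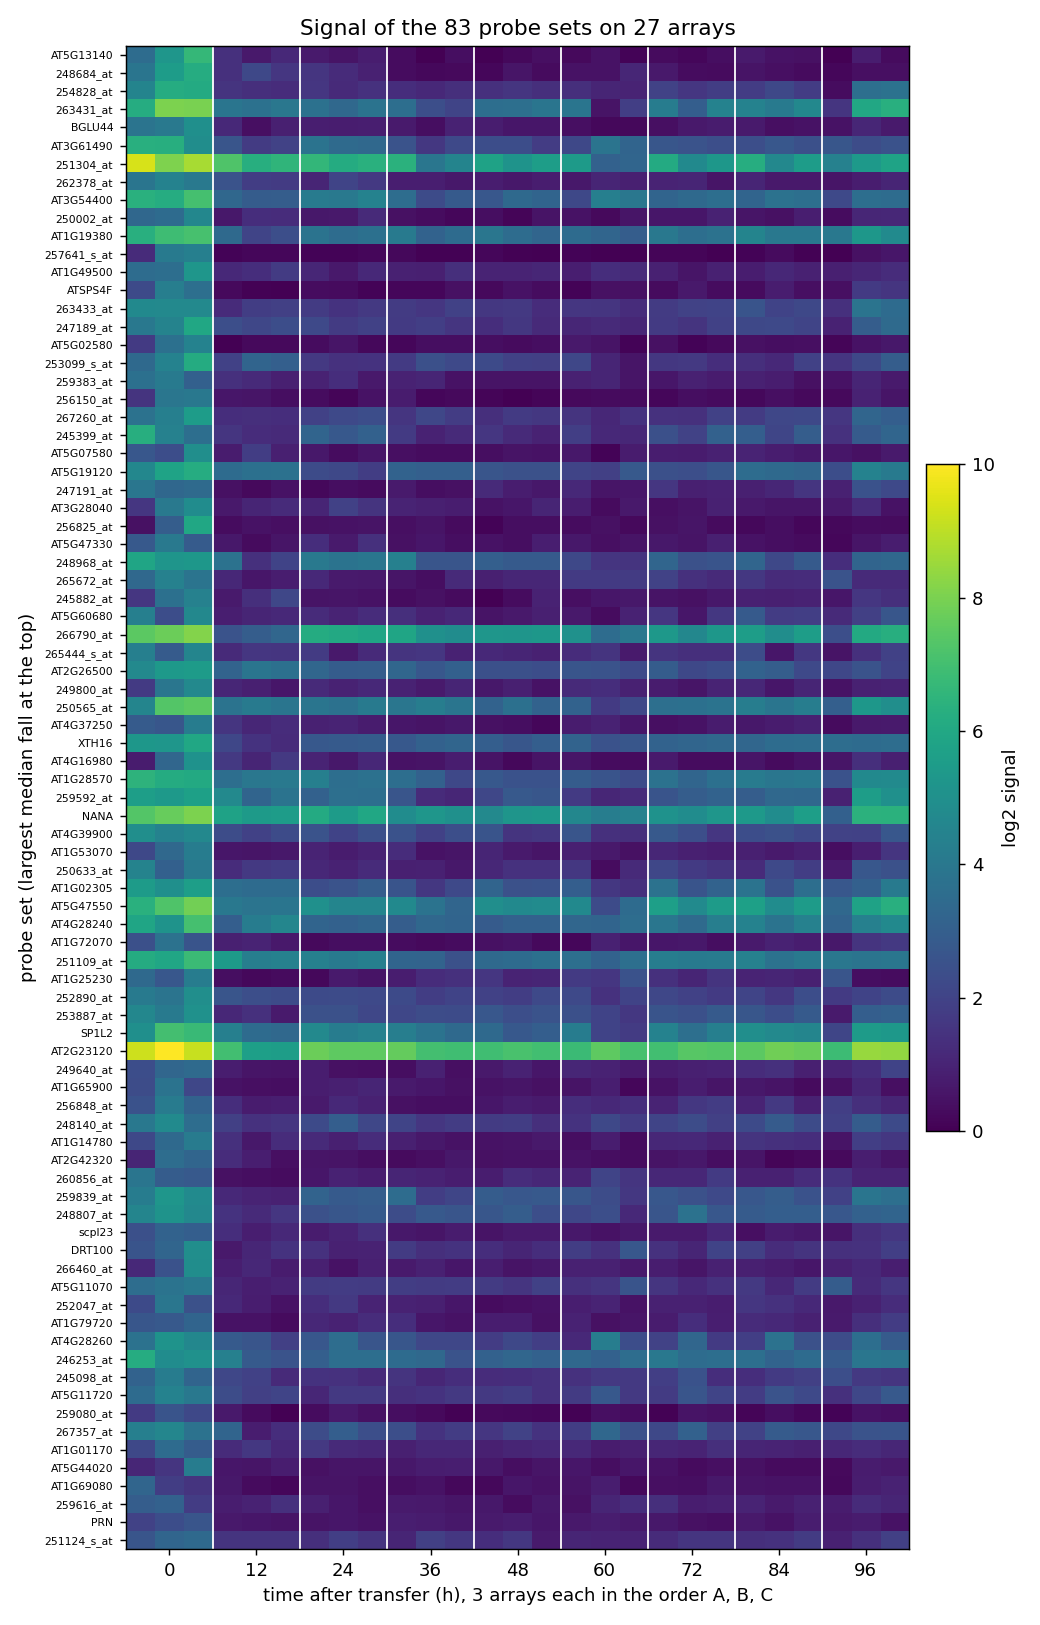
Log2 signal of the 83 probe sets (vertical axis, ordered by the median difference from 0 h) on the 27 arrays (horizontal axis, time in hours, each with A, B and C from left to right); colour runs from 0 to 10 log2 units. The 3 columns at 0 h are the brightest for most probe sets, and at 96 h the left column (A) is darker than the other two in many.

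The rule asks for a difference of at least 1.5 at 12 h already, so genes that declined slowly could not enter, and the timing within the set is a description. At 12 h the median probe set of the set had reached 86.2% of its largest difference from 0 h, 35 of the 83 had reached at least 90%, and 7 had reached less than 60%. The median difference was -2.49 at 12 h, -2.34 at 24 h, -2.75 at 60 h and -2.07 at 96 h, while that of all probe sets was between 0.00 and 0.04 at every time. The lowest mean came at 12 h for 18, at 36 h for 14, at 48 h for 16 and at 60 h for 24 of the 83, and at 96 h for 1, AT2G26500. In 70 of the 83 all 24 later arrays lay below all 3 arrays of 0 h. Over all probe sets this share was 1.7%, from which nothing is read, since the rule used the same contrast.

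The 6 genes of the cell wall and the cell exterior, grouped from known roles after the set was known, had median differences from -4.82 to -1.89. AT5G13140, a gene of the Ole e 1 and extensin family, whose products are secreted, had the lowest median difference of the 83. It read 3.54, 5.25 and 6.65 log2 units at 0 h in A, B and C, 1.37, 0.7 and 1.15 at 12 h, and between 0.0 and 0.82 on all 21 arrays from 24 h on. The time-courses began at unequal heights and ended together near the array floor. BGLU44, a beta-glucosidase of glycoside hydrolase family 1, read 3.84, 4.04 and 4.99 at 0 h and 1.15, 0.42 and 0.86 at 12 h. Its 24 later arrays lay between 0.22 and 1.15 with a median of 0.71, so the 0 h arrays stood clear of every other. AT3G61490, a pectin lyase-like polygalacturonase gene, read 6.32, 6.25 and 4.91 at 0 h and 2.64, 1.74 and 1.99 at 12 h. XTH16, which cuts and rejoins xyloglucan chains, read 5.29, 5.27 and 5.95 at 0 h and 2.12, 1.46 and 1.23 at 12 h, and all its later arrays lay between 1.23 and 3.58. AT5G11720, an alpha-glucosidase gene of glycoside hydrolase family 31, lay between 1.09 and 2.79 on later arrays against 3.48 to 4.44 at 0 h. The arabinogalactan protein gene AT4G16980 read 0.78, 3.3 and 5.11 at 0 h, so that A began near the floor. A stood above its own 0 h array at 12 h (1.67) and at 24 h (0.99). Its lower level rests on B and C.

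Peptidase genes and a peptidase inhibitor formed another group of 7, put together from known roles after the set was known. In each of the 7 all later arrays lay below all 0 h arrays, as in 70 of the 83 and in 1.7% of all probe sets. The rule used the same contrast, so this does not set the group apart. NANA, an aspartic protease linked to the plastid, read 7.34, 7.66 and 8.02 at 0 h and 5.77, 5.45 and 5.51 at 12 h. At 96 h it read 3.08 in A and 6.43 and 6.38 in B and C, so A moved down where B and C moved up. The other aspartic protease genes were AT3G54400 (6.18 to 7.07 at 0 h, 2.16 to 4.43 later), AT5G19120 (4.64 to 6.21, then 1.8 to 4.44) and AT1G79720 (2.69 to 3.21, then 0.29 to 1.77). AT1G02305, a cathepsin B-like cysteine protease gene, went from 4.99 to 5.61 at 0 h to 1.4 to 4.09 later. The serine carboxypeptidase-like gene scpl23 lay at 2.46 to 3.15 and then at 0.41 to 1.58. AT5G47550, a cystatin gene, whose product inhibits cysteine proteases, read 6.34, 7.23 and 7.88 at 0 h and 4.0, 3.83 and 3.89 at 12 h. At 60 h its arrays lay apart, at 4.75, 2.27 and 3.48, and at 96 h at 3.37, 5.77 and 6.32. The 96 h array of C (6.32) was thus barely below the 0 h array of A (6.34).

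Receptor-like genes and a lectin gene were lower from levels of 3.24 to 3.60 at 0 h. AT4G37250 and AT3G28040, leucine-rich repeat receptor-like kinase genes, lay between 0.16 and 1.55 and between 0.3 and 1.95 on later arrays. AT3G28040 read 1.6, 4.05 and 4.86 at 0 h, so its A array there overlapped the later range. AT1G53070, of the legume lectin family, read 2.18, 3.37 and 4.18 at 0 h and lay between 0.38 and 1.56 later. DRT100, a leucine-rich repeat protein gene named for DNA damage tolerance, lay between 2.61 and 4.93 at 0 h and 0.69 and 2.7 later, an overlap of the ranges.

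Among genes of metabolism, ATSPS4F encodes a sucrose phosphate synthase, which makes the precursor of sucrose. It read 2.26, 4.28 and 3.67 at 0 h and 0.24, 0.06 and 0.0 at 12 h, and at 96 h stood at 0.4 in A and 1.68 and 1.56 in B and C. AT2G26500, a subunit gene of the plastid cytochrome complex between the photosystems, read 4.72, 5.37 and 5.48 at 0 h, 3.2, 3.9 and 3.68 at 12 h and 2.12, 2.57 and 2.02 at 96 h. AT1G28570, a GDSL lipase-like gene, read 6.45, 6.16 and 6.08 at 0 h and 3.62, 3.97 and 4.06 at 12 h. The phosphatase genes AT1G25230 (purple acid phosphatase family) and AT5G44020 (acid phosphatase) and the palmitoyl thioesterase-like gene AT5G47330 had highest later arrays of 2.63, 0.83 and 1.37. Their 0 h arrays began at 2.72, 1.08 and 2.8, above those later values.

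AT2G23120, a gene of late embryogenesis abundant proteins, which protect cells in drying, was the brightest of the 83. It read 9.22, 9.99 and 9.17 at 0 h, 6.97, 5.66 and 5.55 at 12 h, and 6.85, 8.45 and 8.36 at 96 h, and it stayed among bright signals throughout. The wound-responsive family gene AT4G28240 lay at 5.13 to 7.05 at 0 h and 2.86 to 4.75 later, and AT1G14780, of the membrane attack complex and perforin family, at 2.18 to 4.16 and 0.29 to 1.86. Of regulatory genes, the ethylene response factor family member AT5G07580 lay at 2.36 to 4.95 and then 0.11 to 1.81, and PRN, a pirin that binds a G protein subunit, at 1.99 to 2.65 and then 0.39 to 0.84. SP1L2, a SPIRAL1-like protein gene of cortical microtubules, read 4.99, 7.03 and 6.76 at 0 h, 4.3, 3.5 and 3.39 at 12 h and 2.08, 5.48 and 5.35 at 96 h. Its ranges overlapped, and its smallest differences from 0 h in B and C, both at 96 h, were -1.54 and -1.42. In A the smallest was -0.05, at 84 h, where it read 4.94 against 4.99 at 0 h.

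**Figure D2:**
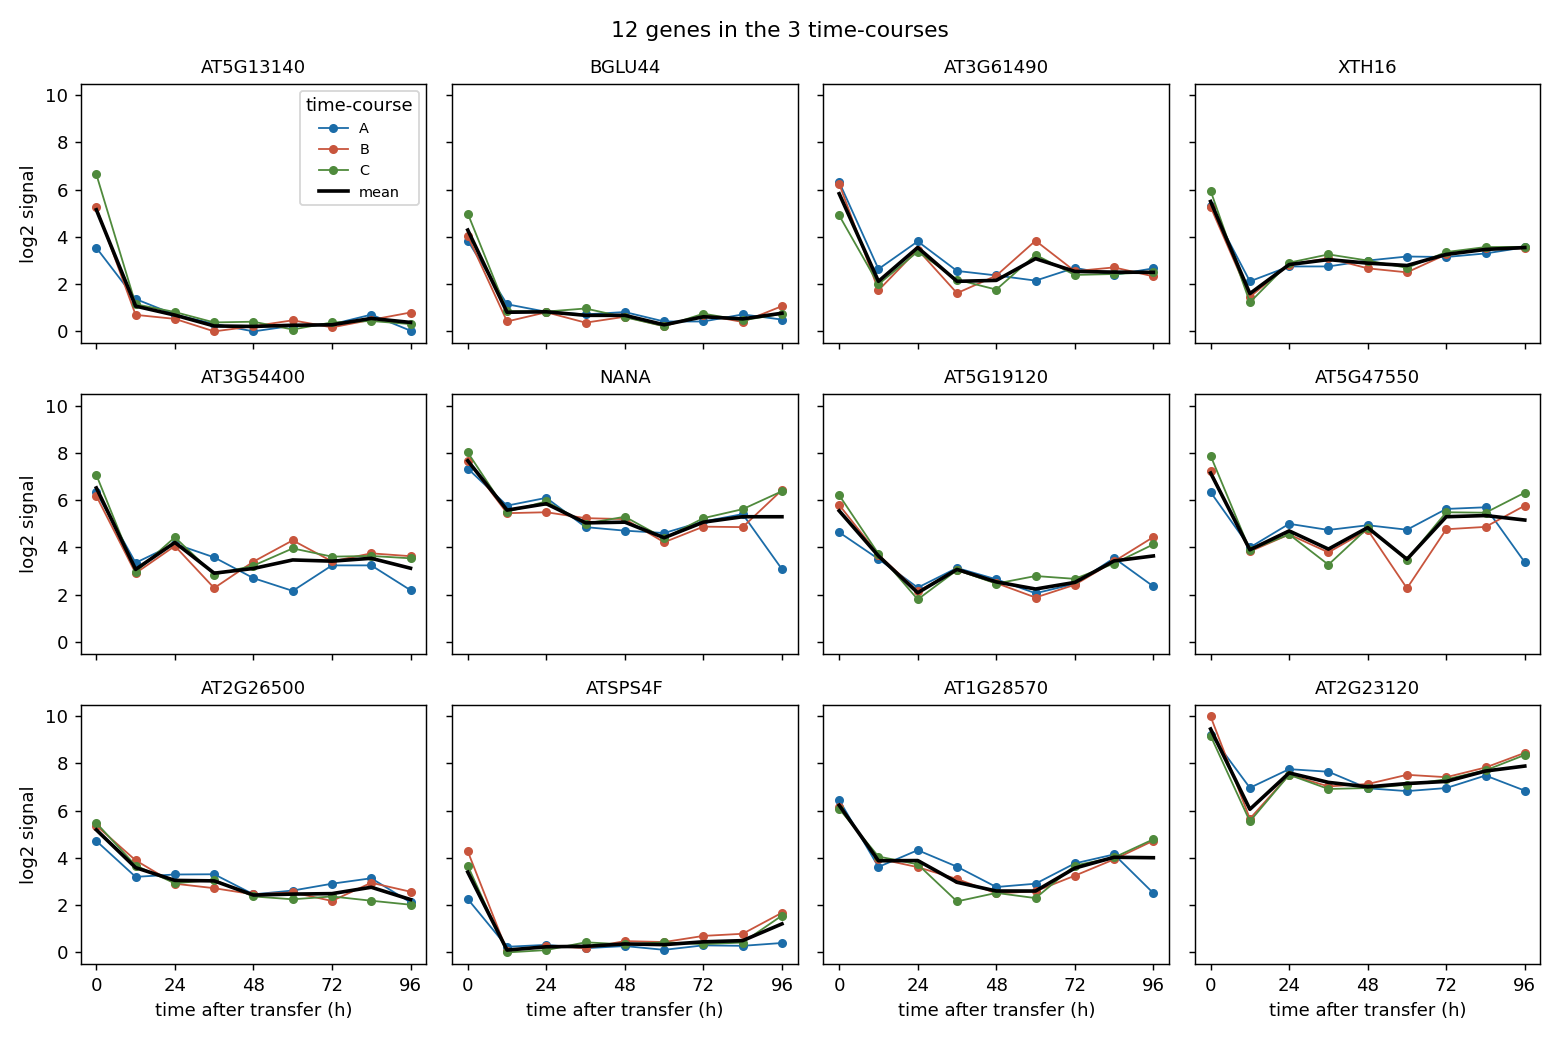
Log2 signal (vertical axes) against time after transfer in hours (horizontal axes) of 12 genes; coloured points and lines are the time-courses A, B and C and the black line is their mean. AT5G13140 and BGLU44 stay near 0 after 12 h, XTH16 and AT2G23120 climb from their 12 h low, and NANA, AT5G47550 and AT1G28570 part at 96 h, where A is lowest.

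Of the probe sets without a listed gene, 251304_at read 9.4, 8.06 and 8.71 at 0 h and 7.26, 6.25 and 6.54 at 12 h, and its lowest values, 3.12 and 3.26, came at 60 h in B and C, where A read 5.43. For 266790_at the arrays read 7.47, 7.74 and 8.16 at 0 h, 2.54, 2.94 and 3.31 at 12 h and 6.16, 6.04 and 5.89 at 24 h. It thus had both a deep low at 12 h and a level at 24 h closer to its start. The probe set 263431_at read 6.19, 8.04 and 7.99 at 0 h, 3.88, 3.72 and 3.97 at 12 h and 1.56, 5.99 and 6.32 at 96 h. The other deep differences were those of 248684_at, which read 3.89, 5.52 and 6.18 at 0 h and 0.17, 0.41 and 0.41 at 96 h, and of 254828_at, with 4.51, 6.18 and 6.12 at 0 h and 0.35, 3.67 and 3.77 at 96 h. The first stayed low in all 3 time-courses, while the second had begun to return in B and C alone.

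The 5 members nearest the threshold were 252047_at (-1.504 at 84 h), AT1G25230 (-1.51 at 60 h), AT5G44020 (-1.52 at 36 h), AT4G28260 (-1.53 at 24 h) and SP1L2 (-1.53 at 84 h), each at its smallest difference from 0 h. Just outside lay 266327_at (-1.47 at 12 h), XTH19 (-1.47 at 24 h), AT5G58390 (-1.47 at 12 h), AT3G43110 (-1.47 at 96 h) and scpl35 (-1.46 at 24 h). XTH19 and scpl35 belong to the families of XTH16 and scpl23.

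Arrays that took no part in the choice were used to measure the same differences. The rule was applied to the means of each pair of time-courses, and the probe sets it chose were then read in the time-course left out. In A, 22 of 84 chosen (26.2%) lay at least 1.5 below 0 h at all 8 later times, against 0.585% of all probe sets. In B the count was 44 of 106 (41.5%, against 0.51% of all) and in C 39 of 90 (43.3%, against 0.607%). Lower than at 0 h at all 8 times by any amount were 67 of 84 in A, 92 of 106 in B and 87 of 90 in C, where the shares of all probe sets were 14.6%, 12.8% and 13.8%. These shares of all include many dim probe sets: of 22743, 9317 had a 0 h mean of 1.5 or more, which alone could fall by 1.5. Among those brighter ones, 25.9% were below 0 h at all 8 later times on the means of all time-courses. Their shares within single time-courses were not counted. The median of the smallest difference was -0.73 in A, -1.36 in B and -1.37 in C, so the differences were in the same direction and shallower than the threshold in most of each choice. All arrays were normalized together, so the time-course left out is separate in its RNA and not in its processing.

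**Figure D3:**
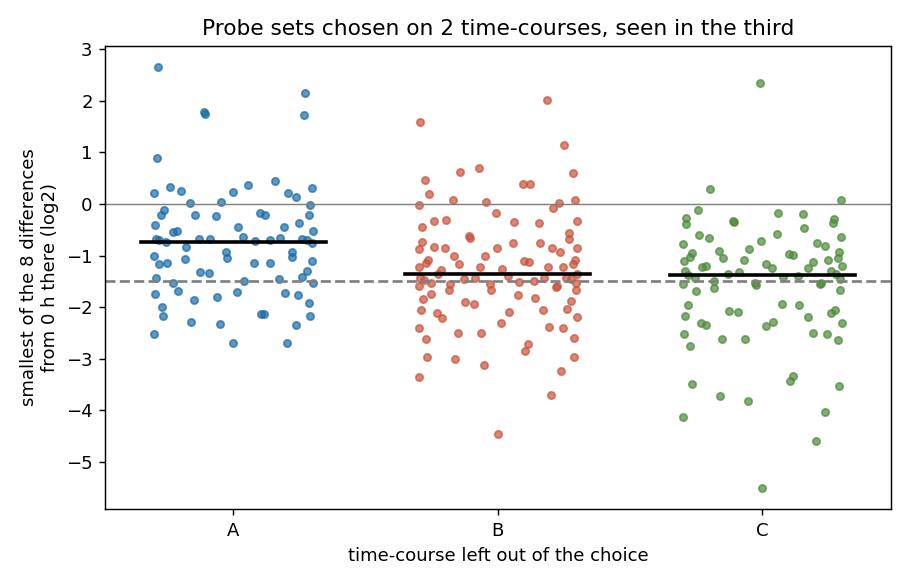
Smallest of the 8 differences from 0 h (log2, vertical axis) of probe sets chosen on 2 time-courses, read in the time-course left out (horizontal axis). Each point is a probe set (84, 106 and 90), the bar is the median, and the dashed line is the threshold of 1.5 below 0 h; 22, 44 and 39 points lie at or under it.

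Taken one time-course at a time, 36 of the 83 met the 1.5 threshold at all later times in A, 53 in B and 55 in C. It was met in all 3 by 17, in 2 by 32, in 1 by 29 and in none by 5. The 17 held 10 with 1 gene: AT5G13140, BGLU44, AT3G61490, AT3G54400, AT1G19380, AT1G49500, ATSPS4F, XTH16, AT4G39900 and AT1G02305. The 5 that met it in none were 259592_at, 259839_at, AT1G79720, 267357_at and 251124_s_at. In B, 259592_at stood 0.17 above its 0 h array at one later time.

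The levels from 12 h on were then compared with each other, in contrasts whose means leave out 0 h. The spread was pooled over all times, 0 h included, so scattered 0 h or 96 h arrays raise the standard errors of a member. For 256825_at the standard deviation was 2.75 at 0 h, 0.07 at 12 h and 0.04 at 24 h. Its standard error for 24 h minus 12 h was 0.706. The counts of members called in these contrasts are therefore not free of the 0 h arrays that chose them. A moderated F test over the 8 later times (limma, adjusted over all 22743 probe sets, adjusted p under 0.05) called 14 of the 83, or 16.9%, against 17.4% of all probe sets, a share near the background. The smallest p among members with 1 gene were those of XTH16 (adjusted p = 1.39e-05), AT1G19380 (0.00389), AT2G26500 (0.00653), AT5G19120 (0.013), AT2G23120 (0.022) and AT1G28570 (0.0278) by limma. Their courses differ. XTH16, AT1G19380 and AT2G23120 were lowest at 12 h, AT5G19120 at 24 h (means of 2.08 there and 3.64 at 12 h), AT1G28570 at 48 h (2.6, against 4.01 at 96 h), and AT2G26500 at 96 h (2.24). The count was 3 without time-course B, 1 without C and 43 without A; XTH16 was the sole one of these 6 to be called in each of those fits. The adjusted p of AT1G28570 was 0.0582 after quantile normalization.

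Between 12 h and 24 h, 9 of the 83 rose and 1 fell, 12.0% in all, against 12.6% of all probe sets (5.31% up and 7.29% down). The largest rise was that of 266790_at (3.10 ± 0.64 log2 units, SE, n = 3, limma adjusted p = 0.00181). The probe set 259839_at rose by 1.99 ± 0.42, from 1.15, 0.98 and 0.9 to 3.19, 2.85 and 2.96, and 245399_at by 1.69 ± 0.51, from 1.53, 1.27 and 1.21 to 3.22, 2.76 and 3.12. AT2G23120 rose by 1.54 ± 0.37 and AT3G61490 by 1.43 ± 0.37, the latter to 3.81, 3.46 and 3.38. AT5G19120 was the sole member to fall, by 1.56 ± 0.39 (adjusted p = 0.00883), to 2.3, 2.15 and 1.8. In each of these 6 the 3 arrays of one time lay clear of the 3 of the other. The calls of 245399_at and AT3G61490 were lost without the 24 h array of A (adjusted p = 0.0942 and 0.0542) or the 12 h array of B (0.0866 and 0.0684), and that of 245399_at also without the 12 h or the 24 h array of C (0.0893 and 0.087). Without either of the first 2 arrays, 6 of the 83 were called. Without time-course A, B or C 19, 4 and 1 were, and of these 6 only 259839_at kept its call without B, and none without C (smallest adjusted p = 0.0615, for 266790_at).

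No member was called between 48 h, before the wall, and 72 h, during its deposition (0 of 83, limma, against 0.44% of all probe sets), and 4 had an unadjusted p under 0.05 (245399_at, 251109_at, 256848_at and AT1G28570), all higher at 72 h, against 5.92% of all probe sets in either direction. The smallest adjusted p among them was 0.667. The median difference was 0.22 over the 83 and -0.01 over all probe sets. The spread behind these p-values took in the arrays of every time, so the lack of calls does not show that the levels were equal. Without time-course A 1 member, SP1L2, was called, higher at 72 h.

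Between 12 h and 96 h, 14 of the 83 rose and 4 fell, 21.7% in all, against 15.2% of all probe sets (6.56% up and 8.62% down). The rule keeps every later mean under the 0 h level and limits 96 h against 48 h, so it narrows what this contrast can show. XTH16 rose by 1.95 ± 0.21 log2 units (limma adjusted p = 7.12e-07), to 3.56, 3.51 and 3.58 at 96 h, the tightest of its times. AT1G19380 rose by 2.08 ± 0.34 from 3.42, 2.04 and 2.41 to 4.01, 5.31 and 4.79, and 259839_at by 2.15 ± 0.42 to 1.93, 3.89 and 3.66. The probe set 248807_at rose by 1.59 ± 0.28 from 1.47, 1.18 and 1.6 to 2.7, 3.11 and 3.21. AT2G23120 rose by 1.83 ± 0.37 and 266790_at by 1.98 ± 0.64, the latter from 2.54, 2.94 and 3.31 to 2.41, 6.06 and 6.27, so that its A arrays did not rise. AT2G26500 fell by 1.35 ± 0.26, as did 248684_at, 262378_at and 251109_at, while ATSPS4F, AT1G79720 and AT5G11070 were among those that rose.

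**Figure D4:**
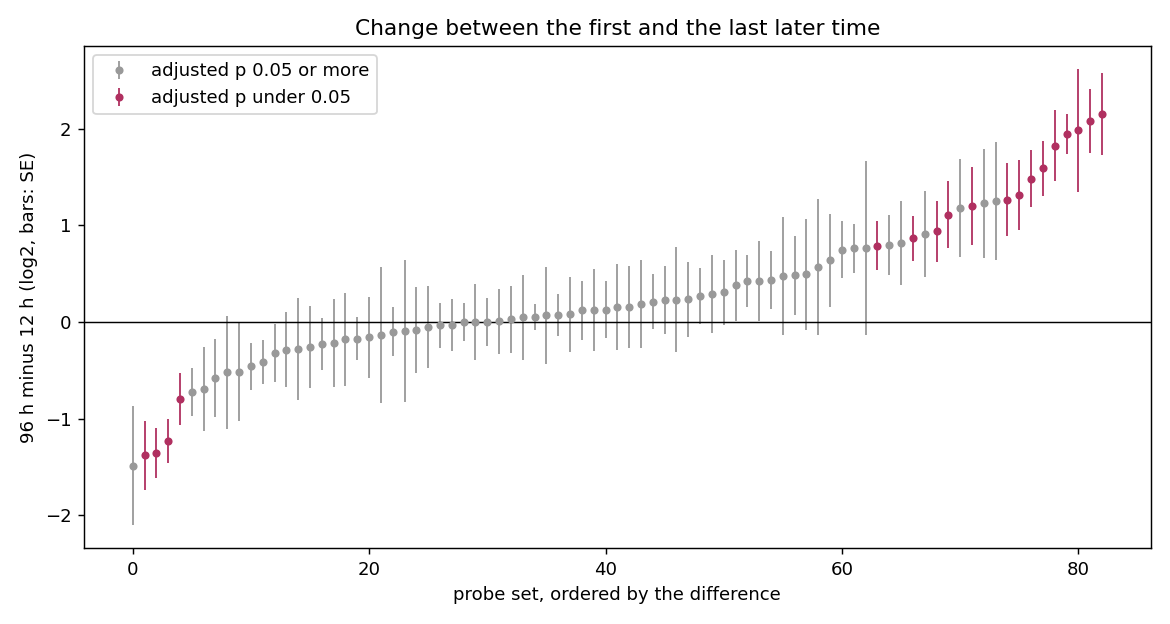
Difference between 96 h and 12 h (log2, vertical axis) of each of the 83 probe sets in rising order (horizontal axis), with bars of 1 standard error from the fit. Of the 18 called at an adjusted p under 0.05, 14 lie above 0 and 4 below.

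The count of 18 was 28 without time-course A, 5 without B and 4 without C. It was 11 without the 96 h array of B and 11 without that of C. The call of 266790_at was lost without the 12 h array of A, B or C (adjusted p = 0.12, 0.0911 and 0.0573) or the 96 h array of B or C (0.223 and 0.23). Without all of C, those of 259839_at, AT1G19380 and AT2G23120 were lost (0.125, 0.0512 and 0.212), and without all of B those of 259839_at and AT2G23120 (0.0765 and 0.123), while XTH16 and 248807_at were called in each of these fits.

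At 96 h the time-courses parted. Within A, 34 of the 83 were higher at 96 h than at 48 h, with a median difference of -0.10, whereas 74 were in B and 72 in C, with medians of 0.53 and 0.60. The medians over all probe sets were -0.02 in A, 0.00 in B and -0.02 in C. These differences enter the rule through the means and are given as a description. The 28 that no longer met the rule when the 96 h array of A alone was left out held 13 with 1 gene, among them NANA, AT5G47550, AT5G19120, AT1G28570, AT4G28240, SP1L2, AT2G23120, scpl23 and AT1G79720. The 55 that did held 28 with 1 gene, among them AT5G13140, BGLU44, AT3G61490, XTH16 and AT3G54400. With A left out at every time, 58 of the 83 met the rule, AT4G28240, scpl23 and AT5G47550 among them. The GAPDH difference on the 96 h array of A was 1.65, the highest of the 9 arrays of A, and below the 5 high arrays of B. Its part in the low values of that array was not tested.

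**Figure D5:**
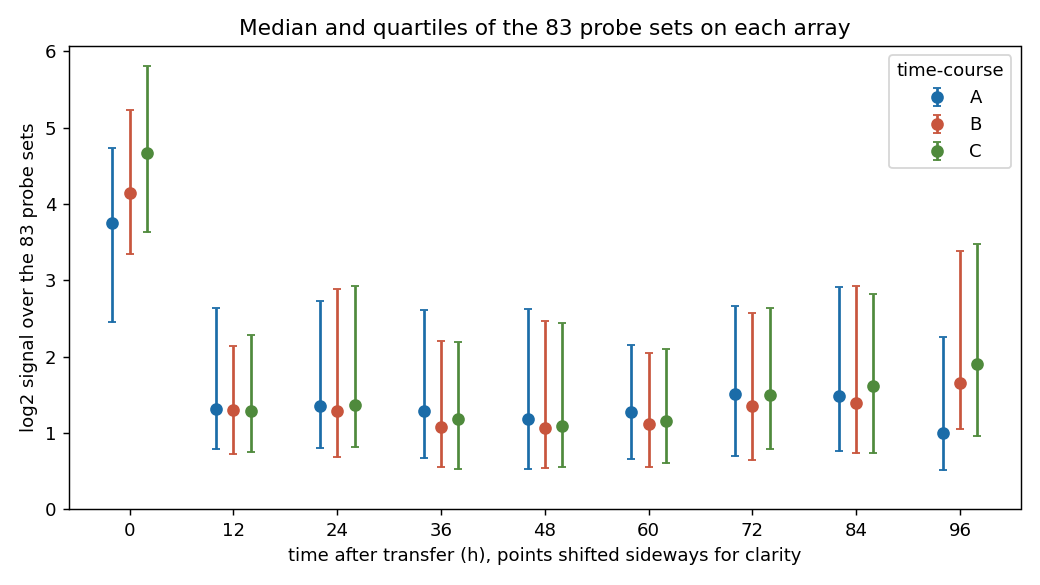
Median and quartiles (points and bars) of the log2 signal of the 83 probe sets on each array, against time after transfer in hours, with time-courses A, B and C side by side. At 0 h the medians are 3.76, 4.14 and 4.66, and at 96 h 0.99, 1.66 and 1.91.

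Differences between the time-courses over all 9 times, fitted with time as a term, were called in 5 of the 83 (6.02%), against 19.7% of all probe sets, by limma's F test. The spread was again pooled over all times, so scattered 0 h or 96 h arrays raise it in a member. The lower share therefore does not show that the members differed less between time-courses. The smallest adjusted p were those of AT4G28260 (0.0111), 259383_at (0.0112), 251304_at (0.0127) and 248140_at (0.0322), and the fifth was 250002_at (0.046), named after its values were seen. AT4G28260, a gene of unstated role, read 5.12, 4.25, 3.32, 3.75 and 3.63 on the 5 arrays of B with a high GAPDH difference, above A and C at each of those times. On the other 4 arrays of B it read 2.65, 3.59, 2.12 and 2.16, and there too it was above both A and C at 24 h (2.71 and 2.65) and 48 h (1.78 and 1.87). The part of RNA quality in this was not tested. For 259383_at, C was at 0.43 to 0.89 on later arrays and B at 0.51 to 1.29, all near the array medians. For 251304_at, A was highest at 8 of the 9 times and lowest at 96 h. For 248140_at, B was highest at 0 h (4.77, against 4.02 and 3.59) and at 96 h (2.91, against 1.95 and 2.25), and its call was lost with arrays centred on the median (adjusted p = 0.0584) and with array weights (0.0657). Without B the count was 0, without A 8 and without C 3, and of the 4 above only 251304_at was called without C (adjusted p = 0.0374).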

How the data were processed

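RNA was read on 27 single-colour arrays, 9 times with 3 arrays each (time-courses A, B and C), grouped by their titles. The authors deposited log2 signals made with RMA, per the submitters' processing notes. RMA corrects background, normalizes between arrays and summarises probe sets. Its version and settings are not given here, and base 2 was taken from the range of the values. The lowest value on every array is 0, so low signals end at a floor and differences that reach it are understated. Of 22810 probe sets, 64 controls and 3 that lack a value were not used. For arrays, their number limits the precision.

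With limma 3.58.1 in R 4.3.3, each time was given its own mean over all arrays (lmFit, contrasts.fit, eBayes). Benjamini-Hochberg adjustment was made over 22743 probe sets. The fit was also tried on simulated data with independent arrays and no floor. Those lack the tie within a time-course seen here, so the trial does not vouch for these data. Values after ± are standard errors from limma. P-values rest on the spread around the time means, pooled over times. The letters pair the arrays, since the series' design text ties each to 1 time-course. Once the time means were subtracted, arrays sharing a letter correlated at a median of 0.25 (108 pairs, from -0.06 to 0.72) and those sharing neither letter nor time at -0.12. Fits with the letter as a block were alternatives, beside centring, quantile normalization, a filter on dim probe sets, array weights, another variance prior and left-out arrays.

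The members, gene lists and tests were chosen with earlier results of these data known. Members named by a stated rule are the 6 highest at 0 h, the 6 with the largest median difference, the 6 with 1 gene and smallest p over later times, the 4 with the smallest p between time-courses and up to 6 called per contrast. The other members given with array values were picked by their known roles, the overlap of their arrays or their place near the threshold, after their values were seen. The text prints the arrays at the times compared and ranges elsewhere, and the plot of all 83 probe sets shows every array. Gene names come from the platform annotation and a TAIR10.1 gene table, used for names and neighbours alone. Roles are general knowledge, assigned after the set was known. No sequences are shown, and promoters were not analysed here.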

Additional observations from a re-analysis of the deposited data

How the results depend on the processing

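Membership moved with the threshold, to 220 probe sets at 1.0 below 0 h (all 83 among them) and to 29 at 2.0. It was 78 with arrays centred on their median, 75 after quantile normalization (72 shared with the 83) and 74 with medians in place of means (54 shared). Leaving out 1 array or 1 time-course gave 56 to 130, the extremes without the 96 h and the 0 h array of A. Of the 280 probe sets chosen on pairs of time-courses, 105 (37.5%) were at least 1.5 below 0 h in the third and 246 (87.9%) were below it by any amount. With an array or time-course left out, members differing among the later times numbered 1 to 43, those called at 24 h against 12 h 1 to 19, at 72 h against 48 h 0 to 1, at 96 h against 12 h 4 to 28, and between time-courses 0 to 8. Array weights raised the counts for the later times and for 24 h against 12 h to 49 and 22, and leaving out dim probe sets raised that between time-courses to 12; the cause was not tested. With the replicate block the counts were 21 among the later times, 12 at 24 h against 12 h (11 up, 1 down), 0 at 72 h against 48 h and 21 at 96 h against 12 h (15 up, 6 down), each within 1.5 times of the count without it, and every call of a named member was kept. Over the named members, 217 of the values under alternatives kept their side of the threshold, 49 lost it, 46 of these with arrays left out, and 0 reversed. Values near the floor limit what can be seen in the 13 probe sets whose later means were all below 1.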

Other observations

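Among the 41 members with 1 gene, AT4G28240 and AT4G28260 are 2 positions apart in the order of protein-coding genes of the TAIR10.1 table, and no other pair of members lies within 5 positions. The 41 fall on all 5 nuclear chromosomes, with 13 on chromosome 1, 4 on 2, 8 on 3, 6 on 4 and 10 on 5. AT4G28260 stood apart in time-course B at 60 h (4.25, against 1.14 in A and 2.35 in C), and no test of the pair was made.

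Other genes of 3 families that members belong to were counted on the same means, where 15.1% of all probe sets were below 0 h at all 8 later times. Among all probe sets with a 0 h mean of 1.5 or more the share was 25.9%. Only genes with a family name in the platform annotation could be counted, and members not listed there may belong to these families. Of 20 beta-glucosidase genes named BGLU, 6 were below their 0 h mean at all 8 later times and 1, BGLU44, was a member. Of 29 genes named as serine carboxypeptidase-like 5 were so and scpl23 was a member. Of 9 genes named XTH 3 were so and XTH16 was a member. Named genes of these families with a 0 h mean of 1.5 or more, which alone could meet the rule, numbered 5, 12 and 4. These families were picked after the members were known, and the counts are a description.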
